A study of Mus musculus with 8 samples.

Results

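Microglia formed 3864 of the 102330 nuclei of the series, and their members are the nuclei that the authors' cell table assigns to microglia, 1 of its 20 cell types. The mice were at postnatal day 21, nuclei were taken from V1, the primary visual cortex, and their RNA was read with a droplet kit that counts unique molecular identifiers (UMIs) near transcript 3′ ends. All mice were GRfl/fl, with Nr3c1, which encodes the glucocorticoid receptor, flanked by loxP sites, and received AAV2/5 at birth under the GfaABC1D promoter, which is active in astrocytes. The vector carried Cre-T2A-EGFP-CAAX-4x6T-WPRE in the animals called GR-KO and ΔCre-T2A-EGFP-CAAX-4x6T-WPRE, with a Cre that does not recombine, in those called GR-Con. Each genotype was reared normally (NR) or in the dark (DR), with 2 libraries for each of the 4 groups and 8 in all, so the manipulation was aimed at astrocytes and microglia were read out as their neighbours. The libraries are named below by group and by the sex given in their names.

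Microglia are the resident macrophages of brain tissue. They descend from yolk sac progenitors, depend on signalling through the receptor Csf1r and on TGF-beta, and keep a homeostatic profile that includes the ADP receptor P2ry12, the fractalkine receptor Cx3cr1 and the complement subunit gene C1qa. In the developing visual system they are known for sampling synapses with motile processes and for taking up synaptic material through complement, Mertk and related receptors.

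The 8 libraries did not sample microglia alike. The NR GR-Con female library held 573 microglia nuclei, the NR GR-KO female library 714, the DR GR-Con male library 885, the DR GR-KO female library 948 and the DR GR-KO male library 734. The other 3 libraries held 2 (NR GR-Con male), 4 (NR GR-KO male) and 4 (DR GR-Con female). These 3 libraries also lacked shallow nuclei of every type. Their shallowest nucleus of any type had 4635, 7024 and 5704 UMIs, whereas that of the other 5 libraries had 1402 to 1460. Microglia were the shallowest of the 20 types, with a median of 2446.5 UMIs and 1519.5 genes, next to 2686 UMIs in smooth muscle cells and pericytes. Of the 3854 microglia in the 5 libraries, 537 reached 4635 UMIs, 228 reached 5704 and 50 reached 7024, and 523, 223 and 47 of those were from the NR GR-KO female library. RNA of the 4 microglial markers in the remaining nuclei was at 16.4 to 18.8 CPM (UMIs of a gene scaled to a fixed library total) in the 3 libraries and at 16.0 to 21.1 CPM in the 5. The 3 libraries therefore gave no profile of their own, and the comparisons of expression rest on 5 libraries with 1 library each in NR GR-Con, NR GR-KO and DR GR-Con and 2 in DR GR-KO. Each of the 4 comparisons thus has a group with 1 library, so library cannot be told apart from genotype or rearing in any of them. The single DR GR-Con library was male and both NR libraries were female. Sex therefore cannot be told apart from rearing in GR-Con, and only partly from genotype in DR and from rearing in GR-KO.

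**Figure D1:**
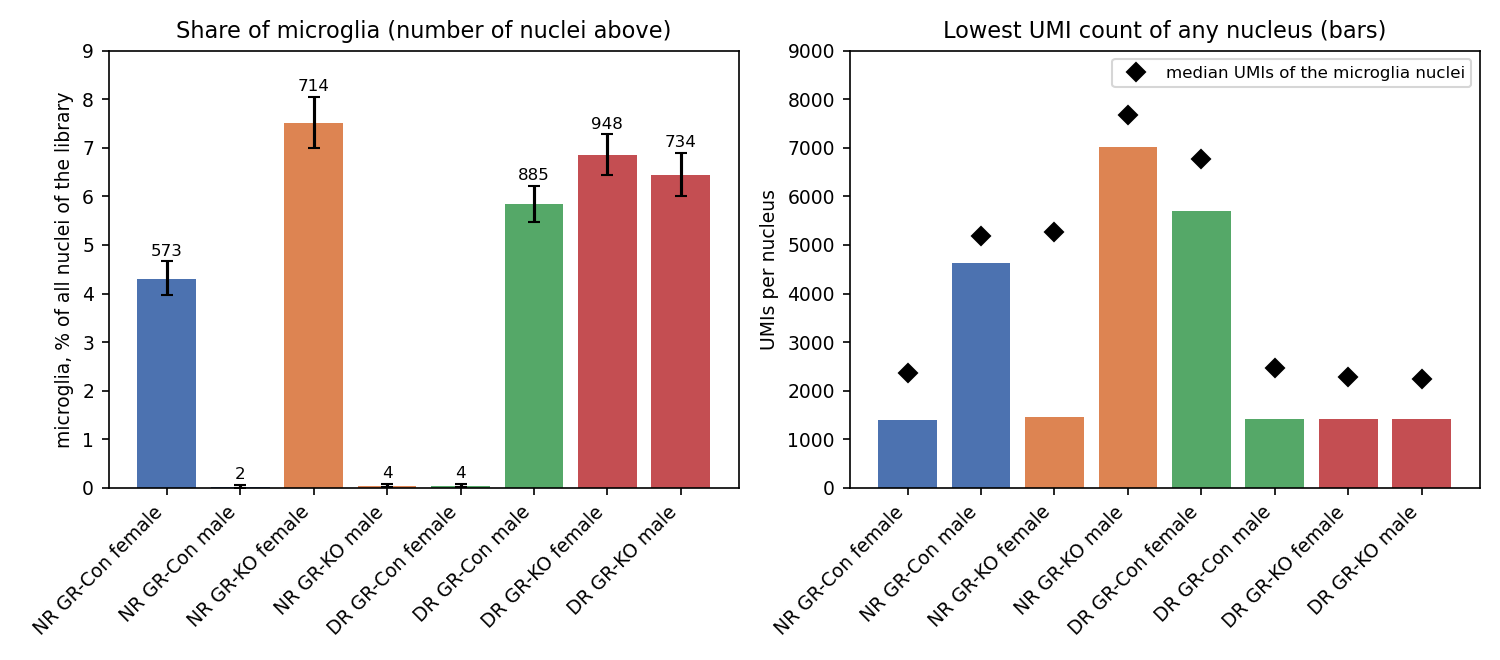
Left, microglia as a percentage of all nuclei of each library, with Wilson 95% intervals and the number of microglia nuclei above each bar. Right, bars give the lowest UMI count of any nucleus in each library and diamonds the median UMI count of its microglia: the 3 libraries with 2 to 4 microglia are those whose shallowest nucleus had 4635 to 7024 UMIs.

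As a share of all nuclei, microglia made up 4.31% (Wilson 95% interval 3.97 to 4.66) in NR GR-Con female, 7.50% (6.99 to 8.05) in NR GR-KO female and 5.84% (5.48 to 6.22) in DR GR-Con male. They made up 6.84% (6.43 to 7.28) in DR GR-KO female and 6.44% (5.999 to 6.90) in DR GR-KO male, and 0.0152%, 0.0330% and 0.0290% in the NR GR-Con male, NR GR-KO male and DR GR-Con female libraries. These intervals cover counting error only. Over all 8 libraries the mean share was 5.20% ± 3.48 in GR-KO and 2.55% ± 2.98 in GR-Con (SD, n = 4 each), and the exact two-sided permutation test over the libraries gave p = 0.171 (adjusted p = 0.343 over both comparisons). The DR mean of 4.79% ± 3.20 and the NR mean of 2.96% ± 3.64 (SD, n = 4 each) gave p = 0.457 in the same exact test, which can reach 0.0286 at the lowest. The spread between libraries of 1 group was thus larger than either difference. Most of this spread lies between the 3 libraries without shallow nuclei, at 0.0152% to 0.0330%, and the other 5. The test therefore cannot separate a difference in microglia share from which libraries held shallow nuclei. Within the 5 libraries that kept shallow nuclei the shares of both DR GR-KO libraries and of NR GR-KO female lay above those of both GR-Con libraries, a description with no test.

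The label held up against the 4 defining markers. In microglia summed over the 5 libraries, P2ry12 stood at 1372.2 CPM against 24.3 CPM in vascular and leptomeningeal cells, the next highest type, a 56.5-fold ratio. Csf1r stood at 913.8 against 13.4 CPM and Cx3cr1 at 906.4 against 16.1 CPM, while C1qa was lower at 75.6 against 3.62 CPM. A UMI of P2ry12 was present in 92.0% of microglia, of Csf1r in 88.6%, of Cx3cr1 in 85.8% and of C1qa in 18.5%. After each nucleus was thinned to 1400 UMIs the shares were 80.0%, 71.1%, 69.1% and 9.82%. In astrocytes, which should lack P2ry12, 7.33% of nuclei held a UMI of it at a median depth of 5498.5 UMIs, and 1.83% after thinning. C1qa was therefore a sparse marker in these nuclei, and its absence from a nucleus says little. Because the label itself came from clustering on expression, these values describe the cluster and no test was made of them.

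Of 4044 genes with at least 50 CPM in microglia, 2100 were highest there among the 20 types. At least 4-fold above every other type were 347, and at least 10-fold 196. The 20 genes with the highest ratio were led by Il21r, the interleukin 21 receptor, at 148.4 CPM against 0.518 CPM in endothelial cells, a 286.6-fold ratio. They included Spi1, which encodes the lineage factor PU.1 (236.1 CPM, 114.0-fold), the exchange factor Vav1 (105.0-fold), the cytokine receptor subunits Csf2rb (111.4-fold) and Csf3r (83.5-fold), the sialic acid lectin Cd33 (93.3-fold) and the nucleic acid sensor Tlr7 (84.5-fold). All 26 listed homeostatic genes, all 15 lineage transcription factors, all 14 lysosomal genes and all 11 purinergic and motility genes were highest in microglia among the 20 types. The share to set beside this is the 2100 of 4044 given above. At the high end were the phosphatase gene Inpp5d at 2159.1 CPM, the adaptor gene Apbb1ip at 1827.2 CPM and the TGF-beta receptor Tgfbr1 at 2498.8 CPM. The receptor tyrosine kinase gene Mertk, at 1917.6 CPM, was less exclusive, since astrocytes reached 1342.6 CPM. Across the 20 types, the genes whose levels followed P2ry12 most closely were Gm46224 (Pearson r = 0.983), the Fc receptor Fcgr3 (0.978), Gm40645 (0.977), Csf2rb (0.977) and Il1a (0.976), a description over types that share libraries.

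The promoters of Vav1 and Apbb1ip are printed here because Spi1, the gene of PU.1, ranked among the identity genes and both promoters hold the letters of a PU.1-type motif. The sequences run 5′ to 3′ on the gene's strand from 250 bases before to 50 bases after the RefSeq start on GRCm38.p6, and capitals mark the motif GAGGAAGT, searched on both strands. It was found in 2 of the 13 promoters matched for the 20 identity genes (Vav1 and I830077J02Rik) and in 3 of 23 promoters of 20 matched homeostatic genes (Apbb1ip, Ctss and Inpp5d), against 3.20% of all 32851 promoters. In Vav1 (chr17:57278850-57279149, plus strand) the match began 11 bases before the start. In Apbb1ip (chr2:22774077-22774376, plus strand) it lay just after the start on the opposite strand and so reads ACTTCCTC. A match is a description of the letters and not evidence of binding.
Vav1: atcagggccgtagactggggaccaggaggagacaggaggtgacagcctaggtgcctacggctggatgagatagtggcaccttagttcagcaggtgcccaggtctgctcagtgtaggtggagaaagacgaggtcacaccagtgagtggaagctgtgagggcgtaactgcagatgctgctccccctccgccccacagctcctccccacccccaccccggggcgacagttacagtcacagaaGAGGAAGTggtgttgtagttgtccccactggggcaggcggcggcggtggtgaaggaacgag
Apbb1ip: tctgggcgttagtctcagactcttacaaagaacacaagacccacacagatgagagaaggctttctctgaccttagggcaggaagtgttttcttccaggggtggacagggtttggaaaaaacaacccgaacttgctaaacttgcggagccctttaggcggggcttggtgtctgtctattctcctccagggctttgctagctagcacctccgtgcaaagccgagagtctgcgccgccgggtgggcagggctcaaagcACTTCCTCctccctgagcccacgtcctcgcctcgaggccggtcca

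Activation genes ranged from abundant to near absent in microglia. Of 21 measured activation genes 11 were highest in microglia among the 20 types. That is near the 2100 of 4044 genes with at least 50 CPM in microglia, a floor that many activation and inflammatory genes do not reach. Below 10 CPM stood 10 of the 21, against 63.7% of all 26711 features. The low ones included Spp1 (0.446 CPM), Gpnmb (0.178 CPM), Cst7 (0.535 CPM) and Itgax (3.39 CPM). Of 16 inflammatory genes 13 were highest in microglia and 8 stood below 10 CPM, with Il1b at 1.34 CPM and Tnf at 2.32 CPM, although Il1a was at 60.2 CPM. Interferon-response genes had a median of 6.86 CPM, and proliferation genes one of 1.96 CPM. A UMI of the cycling marker Mki67 was found in 0.337% of microglia, and 3 of 3854 nuclei held 2 or more cycling markers. Of the 10 listed ligands and receptors shared with neighbours, 3 were highest in microglia, among them the Mertk ligand Pros1 at 296.2 CPM against 70.4 CPM in endothelial cells, and Gas6, the other Mertk ligand, was at 120.4 against 125.2 CPM in L5PT neurons. The Csf1r ligand Il34 was at 5.17 CPM in microglia against 449.3 CPM in smooth muscle cells and pericytes, the other Csf1r ligand Csf1 at 19.2 against 89.3 CPM in oligodendrocytes, and Tgfb2 at 2.76 against 154.8 CPM in endothelial cells. Conversely Sirpa, the receptor for the don't-eat-me signal Cd47, was at 821.1 CPM in microglia against 124.8 CPM in astrocytes.

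A minor population with the profile of border macrophages sat inside the microglia label. Border-associated macrophages live in the meninges and around vessels and share Csf1r with microglia. UMIs of at least 3 of 8 border macrophage markers (Mrc1, Cd163, Lyve1, F13a1, Pf4, Ms4a7, Cbr2 and Clec12a, a subset chosen after the values were seen) were present in 83 of the 3854 nuclei, or 2.15% (Wilson 95% interval 1.74 to 2.66). They numbered 6 (1.05%) in NR GR-Con female, 23 (3.22%) in NR GR-KO female, 20 (2.26%) in DR GR-Con male, 14 (1.48%) in DR GR-KO female and 20 (2.73%) in DR GR-KO male. By the broader rule of at least 2 of 10 markers, which adds Stab1 and Dab2, 576 nuclei (14.95%) qualified, 27.6% of the deeper NR GR-KO female library and 10.1% to 15.5% of the others. F13a1, a coagulation factor subunit used to choose them, had 1790 of its 1869 UMIs in the 83 nuclei.

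Genes that were not among the markers used to choose the 83 nuclei also differed between them and the rest. Sall1, a transcription factor of parenchymal microglia, was at 7.01 CPM in the 83 nuclei against 319.6 CPM in the rest, and Tmem119, another microglial marker, at 7.01 against 105 CPM. Sparc had no UMI in them against 178.5 CPM in the rest. Cx3cr1 fell short in the same way at 98.2 against 927.4 CPM. P2ry12 (638 against 1391 CPM) and Csf1r (586 against 922 CPM) were less different. The scavenger receptor Stab1 (1543 against 202.5 CPM) and the endocytic adaptor Dab2 (3787 against 55.7 CPM) were higher in the 83 nuclei. Both were left out of the marker subset after the values were seen, so they give no independent support. The collectin Colec12, a marker in neither rule, was also higher, at 1118.5 against 2.56 CPM. The pan-leukocyte gene Ptprc (603 against 494.5 CPM), Fkbp5 (480 against 424 CPM) and Nr3c1 (389 against 340 CPM) were close in both. The median depth of the 83 nuclei, 2710 UMIs, was near the 2443 of the rest. Nuclei chosen by the broader rule differed less from their rest. There Sall1 was at 269.1 against 321.2 CPM and Tmem119 at 73.8 against 108.9 CPM. Cx3cr1 was at 778.2 against 935.2 CPM and P2ry12 at 1295.0 against 1389.6 CPM. Colec12 stayed apart, at 156.4 against 2.73 CPM. The clear loss of microglial genes thus holds for the subset of markers chosen after the values were seen.

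**Figure D2:**
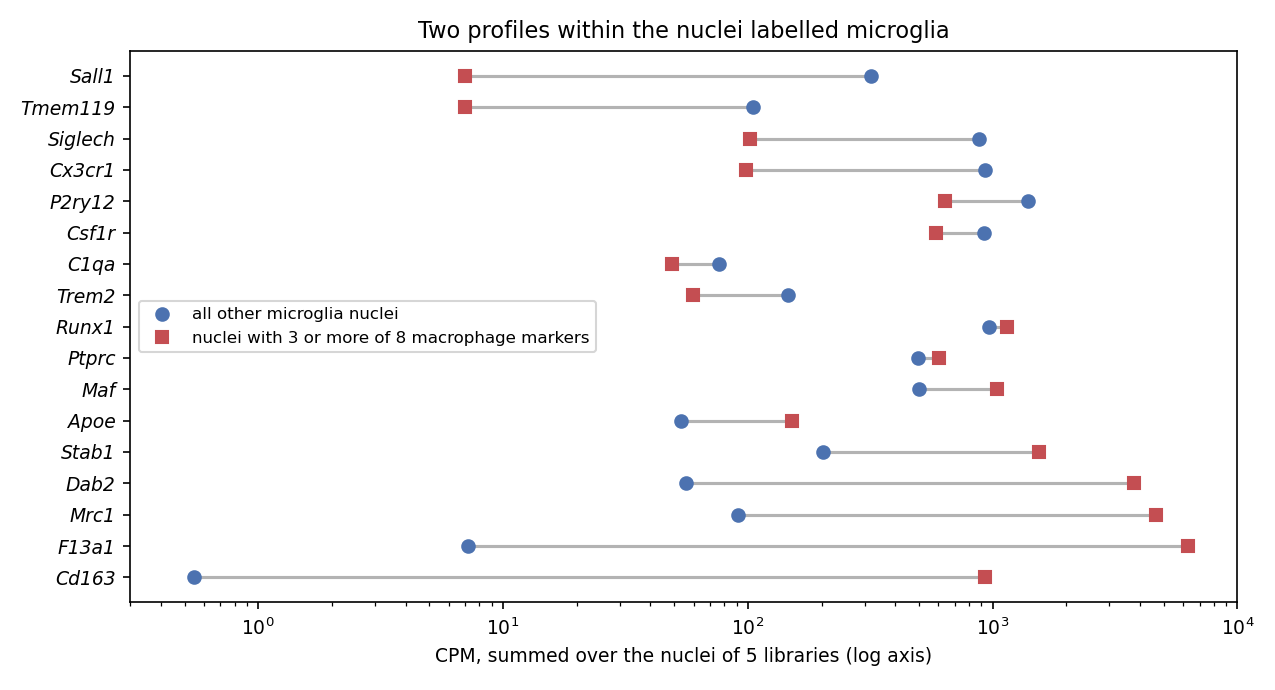
CPM on a log axis of 17 genes, summed over the 5 libraries, in the 83 nuclei with UMIs of at least 3 of 8 border macrophage markers (squares) and in the other microglia nuclei (circles). Sall1, Tmem119 and Cx3cr1 lie to the left in the 83 nuclei and Stab1 and Dab2 to the right, while Runx1 and Ptprc nearly coincide. F13a1, Mrc1 and Cd163 were used to choose the 83, and Stab1 and Dab2 were left out of that choice after the values were seen.

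RNA of other cells was present in the microglia nuclei and differed between libraries. The 1225 features most specific to excitatory neurons took 3.53% of microglia UMIs in NR GR-Con female, 7.01% in NR GR-KO female, 4.30% in DR GR-Con male, 4.37% in DR GR-KO female and 4.10% in DR GR-KO male, against 51.2% to 53.0% in excitatory neurons. The 10 listed neuronal markers summed to 1674, 3491, 1886, 2061 and 1810 CPM in the same order. The NR GR-KO female library thus held the most neuronal RNA in microglia, and its microglia were also the deepest, with a median of 5261 UMIs against 2236.5 to 2469 in the other 4 libraries. The study's methods describe a sort of nuclei without GFP signal, while the labels name the DNA dye alone. Of the vector sequences, EGFP was seen in 1 microglia nucleus, Cre in 4 and ΔCre in none. Cell barcodes occurred in more than 1 library in 1220 of 101098 cases, and 102 microglia shared a barcode with a nucleus of another library, never with another microglia nucleus. Of 12 listed blood immune markers, 11 were below 10 CPM and Ly6c2, Cd3e and Cd8a had no UMI.

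The targeted gene Nr3c1 was read in microglia too, which are not the cells that the astrocyte promoter addresses. It was at 366.2 CPM in NR GR-Con female, 324.7 in NR GR-KO female, 342.4 in DR GR-Con male, 321.1 in DR GR-KO female and 382.2 in DR GR-KO male. These values overlap, and the change in DR was 0.02 on the log2 scale (adjusted p = 0.987). In astrocytes, the target, Nr3c1 ranged from 206.9 to 262.7 CPM in the 4 GR-Con libraries and from 268.3 to 284.0 CPM in the 4 GR-KO libraries. Transcripts that lack a floxed exon still give 3′ and intronic reads, so these counts do not test the recombination.

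Differences between groups were tested in 12856 genes with edgeR's likelihood ratio test, with 1 mean per group, and called at a Benjamini-Hochberg adjusted p under 0.05. In these bulk sums, fewer cells of a subtype and less RNA per cell cannot be told apart. With 5 libraries this fit had 1 residual degree of freedom, set by the DR GR-KO female and male libraries, so the p-values measure how far a difference exceeds the spread of that pair and counting error. The likelihood ratio test takes this spread as known, so adjusted p-values of any size can be too small, very small ones included. Other models made different numbers of calls. DESeq2 called 66 genes for genotype in NR, 11 for genotype in DR, 2 for rearing in GR-Con and 63 for rearing in GR-KO, and with genotype and rearing as additive terms edgeR called 17 for genotype and 151 for rearing. The comparison within DR and the comparison of rearing within GR-KO share both DR GR-KO libraries.

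In DR animals, the glucocorticoid target Fkbp5 was higher in microglia of both GR-KO libraries than in the GR-Con library, and Il6st, the shared signalling subunit of interleukin 6 family receptors, was lower. Of the 12856 genes tested 127 were called, or 0.988%, with 26 higher (0.202%) and 101 lower (0.786%) in GR-KO, and without neuron-enriched features 111 of 11677 (0.951%). The 15 tested of 18 glucocorticoid receptors and targets had 4 members higher and none lower, with a median log2 change of 0.67, against 0.007 over all genes tested. These were Fkbp5, Per1, Tsc22d3 and Ddit4. The Fkbp5 call was lost with DESeq2, those of Per1 and Tsc22d3 with equal numbers of nuclei and without the 83 macrophage-like nuclei, and that of Ddit4 without nuclei holding 2 or more macrophage markers. The list was drawn up with results of these data known.

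Fkbp5, an FK506-binding co-chaperone that dampens glucocorticoid receptor signalling (chr17:28399094-28517527, minus strand, mm10), was at 304.7 CPM in NR GR-Con female, 258.8 in NR GR-KO female, 272.3 in DR GR-Con male, 812.1 in DR GR-KO female and 583.3 in DR GR-KO male. Both DR GR-KO libraries stood above the other 3, which lay close together. Within DR the log2 change was 1.35 ± 0.14 (SE, adjusted p = 1.88e-19), and it differed from the change in NR (interaction, NR minus DR, -1.62, adjusted p = 6.87e-12, where 323 genes were called, or 2.51%, 289 with a positive difference, 2.25%, and 34 with a negative one, 0.264%). Per1, a clock gene that also responds to glucocorticoids, was at 26.1, 25.8, 18.6, 53.3 and 38.0 CPM in the same order of libraries, a log2 change of 1.30 ± 0.28 within DR (SE, adjusted p = 8.50e-04). Tsc22d3, which encodes the leucine zipper protein GILZ, was at 49.2, 40.4, 40.8, 88.1 and 68.2 CPM (0.94 ± 0.22, adjusted p = 0.00313). Ddit4, an inhibitor of mTORC1, had 5.32 CPM in DR GR-Con male against 15.8 and 16.6 CPM in DR GR-KO, but 20.99 and 11.4 CPM in the NR libraries, so the DR GR-Con library was the low one. Sgk1, another glucocorticoid target, was at 79.0 CPM in DR GR-Con male and at 69.6 and 64.1 CPM in DR GR-KO, and was not called.

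The promoters of Fkbp5 and Per1 are shown because, of the 4 glucocorticoid-list members that rose, these 2 were found with an E-box. Capitals mark this E-box, the motif CACGTG bound by clock factors among others. It was found in 2 of 10 promoters of the 5 matched genes among 6 named genes higher in DR GR-KO and in 7.15% of all 32851 promoters. Among 16 matched glucocorticoid genes it was found in 4 of 26 promoters, those of Dusp1, Fkbp5, Per1 and Sgk1. Dusp1 and Sgk1 were not among the members that rose. The motif is its own reverse complement. It began 169 bases before the RefSeq start in Fkbp5 (chr17:28486100-28486399, minus strand) and 166 bases before it in Per1 (chr11:69098699-69098998, plus strand), on GRCm38.p6. The palindromic glucocorticoid response element occurred in none of those 10 promoters, in 2 of the 26 glucocorticoid promoters (Mt1 and Sgk1) and in 0.475% of all promoters. Absence says only that these letters are not in this window.
Fkbp5: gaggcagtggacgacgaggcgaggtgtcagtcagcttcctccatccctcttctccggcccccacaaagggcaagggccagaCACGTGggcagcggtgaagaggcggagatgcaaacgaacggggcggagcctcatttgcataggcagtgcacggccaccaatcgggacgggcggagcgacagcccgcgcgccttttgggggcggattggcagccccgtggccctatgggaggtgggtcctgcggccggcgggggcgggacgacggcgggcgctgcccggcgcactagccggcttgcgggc
Per1: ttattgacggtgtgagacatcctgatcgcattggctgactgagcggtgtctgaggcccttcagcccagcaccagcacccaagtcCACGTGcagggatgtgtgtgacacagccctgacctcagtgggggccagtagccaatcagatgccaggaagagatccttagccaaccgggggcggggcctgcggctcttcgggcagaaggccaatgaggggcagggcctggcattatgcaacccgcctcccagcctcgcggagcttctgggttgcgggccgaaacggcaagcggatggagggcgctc

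Fkbp5 was highest in microglia among the 20 types (425.1 CPM, next to 332.7 CPM in vascular and leptomeningeal cells), and it varied by library in the other types too. Among 15 other types with at least 50 nuclei in every library, both DR GR-KO libraries exceeded the DR GR-Con male library in 12, but exceeded the DR GR-Con female library in 1. The DR GR-Con female library exceeded the male in 14 of the 15. For Per1 both DR GR-KO libraries exceeded the DR GR-Con male library in 13 of these types and the female in 10, and for Tsc22d3 in 11 and in 10. The NR GR-Con female, NR GR-KO female and DR GR-Con male libraries, the 3 low ones for Fkbp5 in microglia, were all below the other 5 in 11 of the 15 types. The 4 microglia nuclei of the DR GR-Con female library held 16 Fkbp5 UMIs, or 582.9 CPM (exact Poisson 95% interval 333.2 to 946.7, counting error only), in the range of the DR GR-KO libraries. In the 2 nuclei of NR GR-Con male Fkbp5 was at 579.5 CPM (212.7 to 1261.3) and in the 4 of NR GR-KO male at 413.5 CPM (220.2 to 707.1). The Fkbp5 difference in DR microglia thus rests on 1 GR-Con library that was low for Fkbp5 in most other types as well. With genotype and rearing as additive terms, the Fkbp5 change was 0.65 (adjusted p = 0.675).

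**Figure D3:**
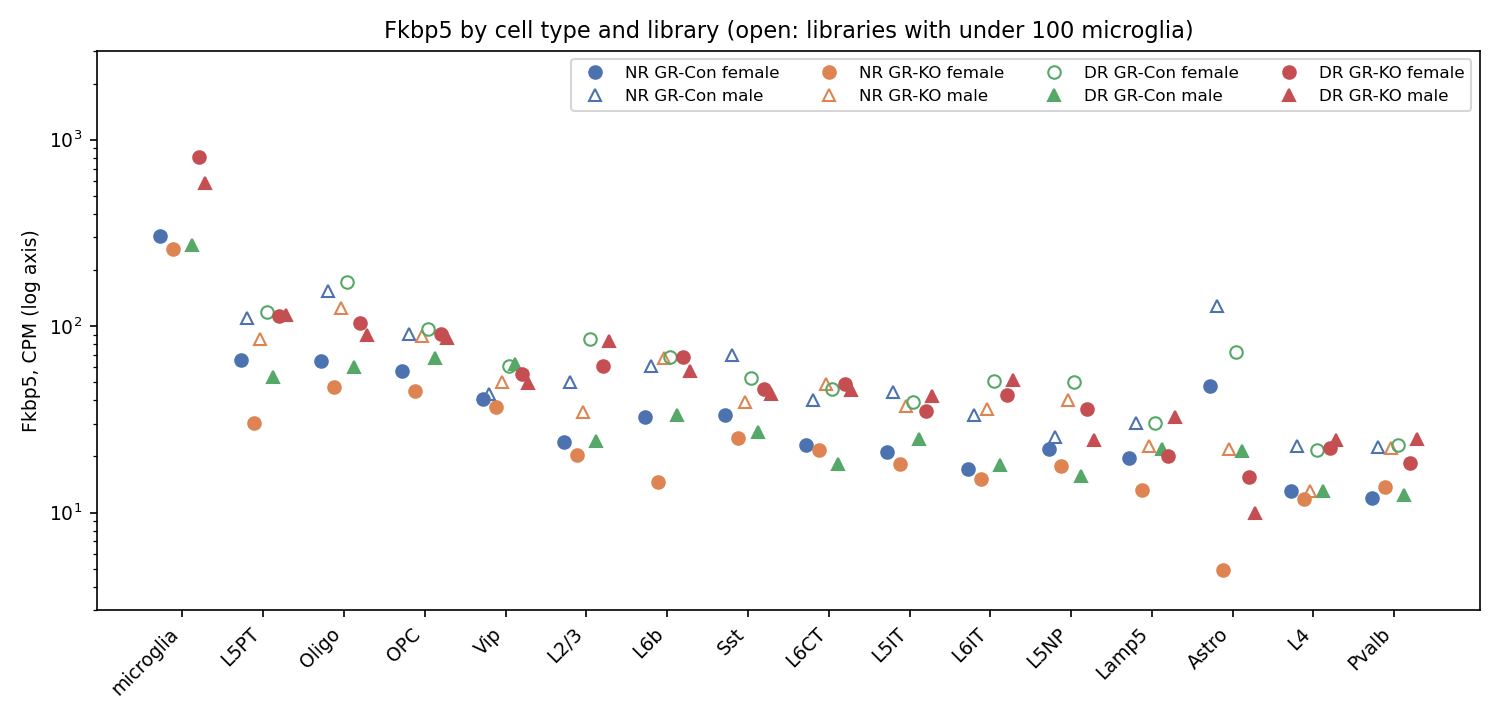
Fkbp5 in CPM (log axis) in microglia of the 5 libraries with 100 or more microglia nuclei and in 15 other cell types of all 8 libraries, 1 point per library. Circles are female and triangles male libraries, and open symbols the 3 libraries with under 100 microglia nuclei. The open symbols sit high in most types, and the filled DR GR-Con male triangle lies below both DR GR-KO libraries in 12 of the 15 other types.

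Other genes higher in DR GR-KO microglia included a cyclin, an amino acid transporter, a vesicle coat adaptor and an Fc receptor. Cyclin D3, Ccnd3 (chr17:47505051-47599691, plus strand), was at 728.8, 588.9, 778.4, 1320.3 and 1265.2 CPM in NR GR-Con female, NR GR-KO female, DR GR-Con male, DR GR-KO female and DR GR-KO male (0.72 ± 0.15, adjusted p = 6.99e-04). The neutral amino acid transporter Slc43a2 was at 90.9 to 91.9 CPM in the first 3 libraries and at 157.6 and 154.3 CPM in DR GR-KO (0.77 ± 0.15, adjusted p = 1.24e-04). Ap1b1, a subunit of the AP-1 clathrin adaptor, was at 112 to 145.5 CPM and at 180.7 and 178 CPM (0.63 ± 0.14, adjusted p = 0.00132). The low-affinity Fc receptor Fcgr3, the 1 member of 18 phagocytosis genes that rose, was at 79.8 CPM in DR GR-Con male and at 112.9 and 136.5 CPM in DR GR-KO (0.62 ± 0.16, adjusted p = 0.0177). For all 4 genes both DR GR-KO libraries lay above the other 3. Lying apart from DR GR-Con male was a condition for naming these genes, so only the place of the NR libraries was free. For Ccnd3, the few microglia of the remaining libraries gave 1641.9 CPM (exact Poisson 95% interval 956.5 to 2628.8) in the 2 nuclei of NR GR-Con male, 1145.0 (801.9 to 1585.2) in the 4 of NR GR-KO male and 874.4 (560.3 to 1301.1) in the 4 of DR GR-Con female, and the intervals of both NR male libraries hold the DR GR-KO values. For Slc43a2 these nuclei gave 386.3 CPM (105.3 to 989.1) in NR GR-Con male, 159.0 (51.6 to 371.1) in NR GR-KO male and 109.3 (22.5 to 319.4) in DR GR-Con female. All of these intervals hold the DR GR-KO values. Among the 15 other types both DR GR-KO libraries exceeded DR GR-Con male in 9 for Ccnd3 and in 9 for Slc43a2, and exceeded DR GR-Con female in 2 and in 8. The Fcgr3 call was lost without the macrophage-like nuclei, that of Slc43a2 with DESeq2, and those of Slc43a2 and Ccnd3 with additive terms.

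Il6st had the smallest adjusted p of the genes that were lower in DR GR-KO. Il6st (chr13:112464070-112510086, plus strand) was at 414.7 CPM in NR GR-Con female, 372.7 in NR GR-KO female, 445.3 in DR GR-Con male, 181.1 in DR GR-KO female and 214.8 in DR GR-KO male, with DR GR-KO below the other 3 of these 5 libraries (log2 change -1.19 ± 0.12, adjusted p = 1.53e-19). Among the 15 other types, both DR GR-KO libraries were below the DR GR-Con male library in 2. Microglia of the DR GR-Con female library gave 291.5 CPM from 4 nuclei (exact Poisson 95% interval 125.8 to 574.3), a range that holds the values of all 3 DR libraries. The 4 microglia nuclei of NR GR-KO male gave 127.2 CPM (34.7 to 325.7), a range that holds both DR GR-KO values and lies below NR GR-KO female. The lipid phosphate phosphatase Plpp1 was at 77.4, 55.9, 76.3, 26.7 and 30.3 CPM (-1.44 ± 0.22, adjusted p = 6.06e-08), and the choline transporter-like Slc44a2 at 71.7, 66.5, 80.3, 35.7 and 35.6 CPM (-1.18 ± 0.21, adjusted p = 1.38e-05). The protease inhibitor Serpine2 was at 215, 188, 209.8, 115.6 and 90.2 CPM (-1.02 ± 0.13, adjusted p = 1.47e-11). In each of these genes both DR GR-KO libraries were the lowest of the 5. Lying apart from DR GR-Con male was again a condition for naming them.

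Among the listed genes and the identity genes, Apbb1ip, an adaptor for integrin activation, was at 2322.6, 2043.4, 2050.4, 1339.7 and 1290.1 CPM in the same order (-0.65 ± 0.15, adjusted p = 0.00539). Its few UMIs in 2 of the other 3 libraries did not keep this split, at 1457.4 CPM (exact Poisson 95% interval 1041.2 to 1984.5) in DR GR-Con female and 1113.2 CPM (775.4 to 1548.2) in NR GR-KO male, ranges that hold both DR GR-KO values and lie below DR GR-Con male and NR GR-KO female. Ly86, which encodes the Toll-like receptor accessory protein MD-1, was at 1399.8, 1278.2, 1409.1, 849.2 and 819.5 CPM (-0.76 ± 0.15, adjusted p = 1.11e-04). The tetraspanin Cd9, a listed activation gene that was about as high in oligodendrocytes, was at 87.1 to 93.4 CPM in 3 libraries and at 41.6 and 55.8 CPM in DR GR-KO (-0.91 ± 0.19, adjusted p = 5.11e-04). Of 7 oligodendrocyte-lineage markers tested within DR, Mobp alone was called, and it was lower. It was at 29.7, 31.7, 34.2, 14.9 and 16.6 CPM, the pattern of Cd9. The part of oligodendrocyte RNA in the Cd9 difference was not tested. Apbb1ip was the 1 homeostatic gene of 26 tested that was called, and the other 25 were not called. P2ry12 was at 1549.6, 1343.6, 1487.1, 1268.8 and 1271.7 CPM, Csf1r at 908.3, 823.3, 945.2, 1005.4 and 954.2 CPM, Cx3cr1 at 869.4 to 974.2 CPM and Sall1 at 289.2 to 334.4 CPM, while the ADP receptor P2ry13 was at 98.4, 97.7, 110, 80.9 and 67.1 CPM (-0.57, adjusted p = 0.0524). The homeostatic list had a median log2 change of -0.08, against 0.007 over all genes tested. Csmd3, a complement-control family member that neurons also express, was at 1061.8, 747.6, 1396.7, 798.1 and 805.3 CPM (-0.81 ± 0.15, adjusted p = 1.74e-05), so its DR GR-Con library was the high one and NR GR-KO female the lowest. Galntl6, a neuron-enriched gene, was at 48.5, 158.7, 145.5, 52.9 and 49.3 CPM and followed neither genotype nor rearing (-1.51 ± 0.16 within DR, adjusted p = 4.07e-17).

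**Figure D4:**
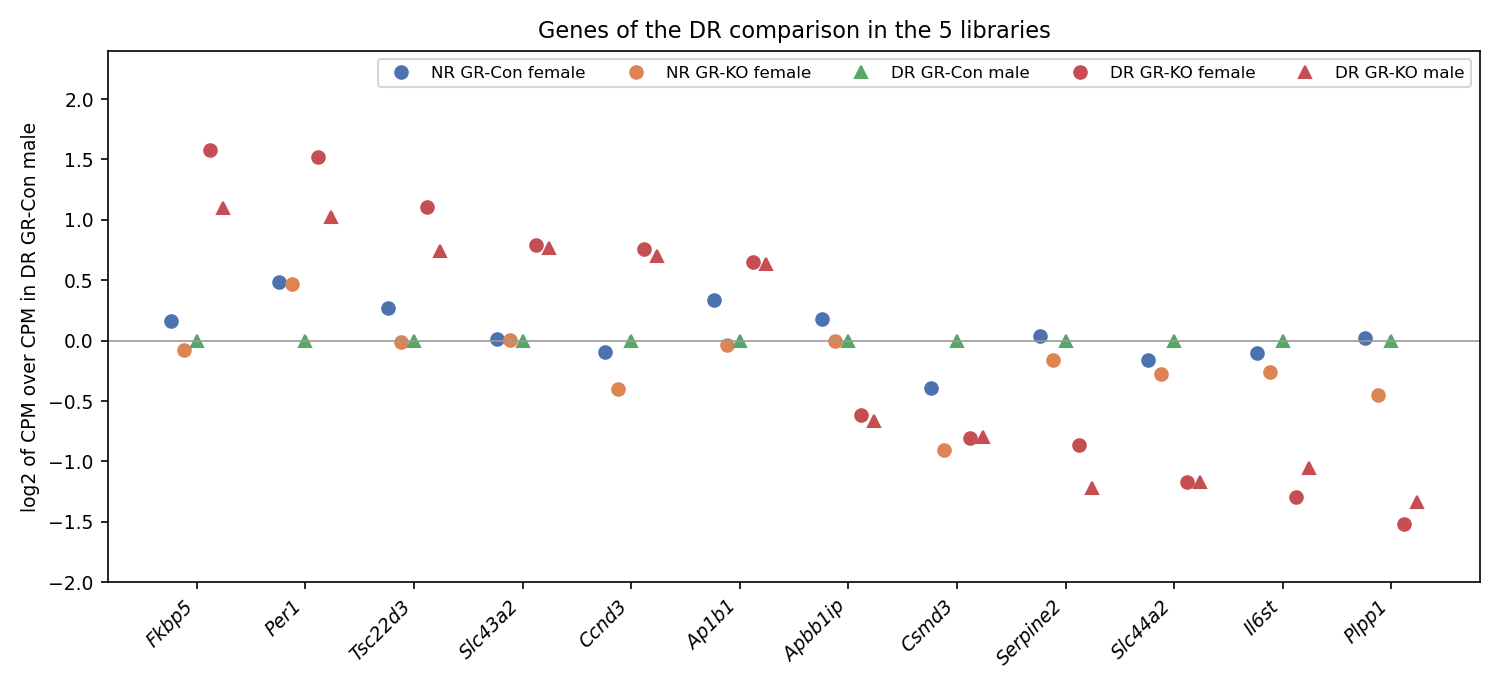
The log2 ratio of CPM to the DR GR-Con male library for 12 genes in the 5 libraries, 1 point per library (circles female, triangles male). For Fkbp5 through Ap1b1 both DR GR-KO points lie above the other libraries, and for Apbb1ip, Serpine2, Slc44a2, Il6st and Plpp1 they lie below, while for Csmd3 the NR GR-KO point is the lowest. Where a gene was named by fold change, no overlap between DR GR-KO and DR GR-Con was a condition for naming it.

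In NR animals, the genes higher in GR-KO microglia were mostly neuronal. Of 12856 genes 400 were called (3.11%), with 373 higher (2.90%) and 27 lower (0.210%), and 312 of the 373, or 83.6%, were neuron-enriched (CPM in excitatory neurons at least 4 times that in microglia), against 9.17% of all genes tested. Of the 10 listed neuronal markers 6 were higher. With the neuron-enriched features left out before the fit, 41 of 11677 genes were called (0.351%). The synaptic vesicle gene Syt1 was at 385.1 CPM in NR GR-Con female and 681.1 in NR GR-KO female, and the potassium channel interacting gene Kcnip4 at 445.1 and 1221 CPM. Both had 378 to 425.9 and 645.3 to 661.7 CPM in the 3 DR libraries. Gpc5, an astrocyte glypican, was at 13.8 and 67.0 CPM (2.25 ± 0.34, adjusted p = 4.01e-09). These genes moved with the neuronal share of UMIs given above, at 3.53% in NR GR-Con female and 7.01% in NR GR-KO female. Its part in the result was not tested, since leaving out neuron-enriched features removes such calls by construction.

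Of 8 border macrophage genes tested 4 were higher in NR GR-KO (Cd163, Dab2, F13a1 and Mrc1) and 4 were not called, among them Stab1 at 234.5 against 237.4 CPM, with a median log2 change of 0.97, against -0.006 over all genes tested. F13a1 was at 80.3 CPM in NR GR-Con female, 195.9 in NR GR-KO female, 179.2 in DR GR-Con male, 142.7 in DR GR-KO female and 187.5 in DR GR-KO male (1.26 ± 0.17 in NR, adjusted p = 8.40e-11). The mannose receptor Mrc1 was at 113.6, 228.9, 200, 206 and 246.9 CPM (0.98 ± 0.16, adjusted p = 1.15e-07). For both genes the NR GR-Con female library was the low one of the 5, and it held 6 of the 83 macrophage-like nuclei. F13a1 and Mrc1 helped to choose those nuclei, and most Dab2 UMIs lie in them, so values without them carry no information on the difference, and the part of these nuclei in it was not tested.

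Few microglial genes were called lower in NR GR-KO, and the 4 described here lost their call with DESeq2. The homeostatic list had a median log2 change of -0.22 and the lineage factor list one of -0.20, against -0.006 over all genes tested. Summed over the 26 homeostatic genes, CPM was 17580 in NR GR-Con female and 15435 in NR GR-KO female, the library with the most neuronal RNA. The part of that RNA in this shift was not tested. Tmem119 was the 1 of 26 homeostatic genes called, at 132.5 CPM in NR GR-Con female, 88.7 in NR GR-KO female, 101.6 in DR GR-Con male, 105.2 in DR GR-KO female and 105.6 in DR GR-KO male (-0.61 ± 0.18, adjusted p = 0.0259). The GTPase-activating gene Dlc1 was at 255.5, 156.5, 158.8, 184.7 and 118.7 CPM (-0.73 ± 0.14, adjusted p = 3.44e-05), and the transcription factor gene Creb3l2 at 140.4, 88.2, 118.4, 111.1 and 105.6 CPM (-0.70 ± 0.18, adjusted p = 0.00374). The Tmem119 and Creb3l2 calls were also lost without neuron-enriched features, and that of Dlc1 with equal numbers of nuclei and without the 83 macrophage-like nuclei. For Tmem119, Dlc1 and Creb3l2 the NR GR-Con female library was the highest of the 5. Wdr41, a partner of C9orf72 in a lysosomal complex, was at 70.3 CPM in NR GR-KO female and at 103.3 to 118.7 CPM elsewhere (-0.78 ± 0.19, adjusted p = 0.00186). None of the glucocorticoid, phagocytosis, lysosome, purinergic or lineage factor genes was called in NR, which for short lists is near the share of all genes called. Fkbp5 had a log2 change of -0.26 there (adjusted p = 0.548).

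In GR-Con animals, DR and NR microglia differed in 129 genes (1% of those tested), 100 higher (0.778%) and 29 lower (0.226%) in DR, in a comparison of a male with a female library. Xist stood at 1921.6 CPM in NR GR-Con female and had no UMI in DR GR-Con male, and the Y-linked Uty, Eif2s3y and Ddx3y were among the higher genes. Of the 100 higher genes 47 were neuron-enriched, and without such features 71 of 11677 were called (0.608%). Of 9 interferon-response genes tested 3 were higher in DR (Ifi204, Ifit3 and Oasl2) and 6 were not called, with a list median of 1.66, against -0.001 over all genes. All 3 calls were lost with DESeq2 and without the 83 macrophage-like nuclei, while over all alternatives the log2 change of Oasl2 lay between 1.73 and 2.33 and that of Ifi204 between 1.13 and 2.05. Oasl2, an interferon-induced gene, was at 4.34 CPM in NR GR-Con female, 5.15 in NR GR-KO female, 20.0 in DR GR-Con male, 19.4 in DR GR-KO female and 9.50 in DR GR-KO male (2.18 ± 0.55, adjusted p = 0.0140). The nuclear body gene Sp100, also induced by interferon, was at 29.7, 42.1, 97.6, 76.8 and 45.7 CPM in the same order (1.71 ± 0.27, adjusted p = 4.68e-07). For both genes the DR GR-Con male and DR GR-KO female libraries were high and DR GR-KO male lay nearer to the NR libraries, so the 2 DR GR-KO libraries did not move alike.

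No gene of the homeostatic, lineage factor, phagocytosis, lysosome or purinergic lists was called for rearing in GR-Con, which for short lists is near the share of all genes called. Of the genes lower in DR, Gm47283 was at 285.2, 266.9, 94.9, 74.5 and 85.5 CPM (-1.59 ± 0.16, adjusted p = 3.12e-20). It lies on the Y chromosome in the annotation (chrY:90784738-90816464), was present in female libraries, and in all 15 other types was higher in the DR GR-Con female than in the DR GR-Con male library, so its level differed between libraries of 1 group. The GTPase-activating gene Tagap was at 63.0, 50.2, 30.6, 45.6 and 42.1 CPM (-1.04 ± 0.28, adjusted p = 0.0294), and the oxysterol-binding family member Osbpl3 at 84.0, 82.7, 42.1, 46.5 and 55.2 CPM. Both had their lowest value in DR GR-Con male.

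In GR-KO animals, 858 of 12856 genes were called for rearing (6.67%), with 216 higher (1.68%) and 642 lower (4.99%) in DR. Of the 642 lower genes 381, or 59.3%, were neuron-enriched, and 8 of 10 neuronal markers were lower, beside the neuronal share of 7.01% in NR GR-KO female and of 4.10% to 4.37% in DR GR-KO. Without neuron-enriched features 382 of 11677 genes were called (3.27%). Fkbp5 was higher in DR by 1.45 ± 0.13 (adjusted p = 4.21e-24) and Ccnd3 by 1.15 ± 0.16 (adjusted p = 3.30e-11), both from the values given above. The clock gene Per3 was at 42.0 CPM in NR GR-Con female, 30.4 in NR GR-KO female, 63.4 in DR GR-Con male, 60.5 in DR GR-KO female and 74.8 in DR GR-KO male (1.16 ± 0.21, adjusted p = 4.51e-06). All 3 DR libraries thus exceeded both NR libraries for Per3, where the separation within GR-KO was a condition for naming the gene. The costimulation-related gene Cd83 was at 26.1, 21.2, 34.6, 37.0 and 50.4 CPM (1.04 ± 0.25, adjusted p = 9.35e-04), with the same separation.

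Some uptake and purinergic genes were higher with DR in GR-KO. Of 18 phagocytosis genes 3 rose and none fell, against 1.68% of all genes tested that were called higher and 4.99% lower. The list median was 0.14, against -0.005 over all genes tested. Mertk, a receptor for apoptotic and synaptic material, was at 1802.2, 1557.3, 2018.9, 2201 and 2292.4 CPM in the same order of libraries (0.54 ± 0.16, adjusted p = 0.0173). The integrin subunit Itgb5 was at 605.2 CPM in NR GR-KO and at 843.3 and 789.3 CPM in DR GR-KO (0.45, adjusted p = 0.0315), and Fcgr3 at 87.4 CPM against 112.9 and 136.5 CPM (0.52, adjusted p = 0.0101). Of 11 purinergic genes the ectonucleotidase Entpd1 (0.44, adjusted p = 0.0444) and the UDP receptor P2ry6 (0.38, adjusted p = 0.0234) rose. The purinergic list as a whole had a median of 0.04, against -0.005 over all genes tested. NR GR-KO female had the lowest value of the 5 libraries for Mertk, Itgb5, Entpd1 and P2ry6, and it was also the library with the most neuronal RNA. The calls of these 4 genes were lost when neuron-enriched features were left out, and that of Fcgr3 when the 83 macrophage-like nuclei were, with no change of sign. Over all alternatives the log2 change lay between 0.37 and 0.58 for Mertk, 0.17 and 0.46 for Itgb5, 0.27 and 0.40 for P2ry6, 0.14 and 0.45 for Entpd1 and 0.16 and 0.53 for Fcgr3.

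Genes lower with DR in GR-KO included Il6st (-0.91), Apbb1ip (-0.62, adjusted p = 0.00191), Ly86 (-0.60, adjusted p = 0.00179) and Cd9 (-0.84), with the values given above. The inflammasome sensor Nlrp3 was at 120.1, 110.4, 92.7, 72.3 and 67.1 CPM in NR GR-Con female, NR GR-KO female, DR GR-Con male, DR GR-KO female and DR GR-KO male (-0.64 ± 0.15, adjusted p = 0.00105). Both NR libraries were above all 3 DR libraries for Nlrp3. Of 12 inflammatory genes tested it was the 1 lower, while Ccl4 and Cxcl10 were higher, from 24 and 17 UMIs in all. The list median was 0.05, against -0.005 over all genes tested. Apolipoprotein E, Apoe, was at 62.3, 73.8, 34.2, 45.2 and 53.4 CPM (-0.58 ± 0.19, adjusted p = 0.0427), again with the NR libraries above. Dennd2c, a Rab exchange factor gene, was at 115.1, 105, 65.6, 35.2 and 57.0 CPM and was lower in DR both in GR-KO (-1.21 ± 0.17, adjusted p = 6.69e-10) and in GR-Con (-0.81, adjusted p = 0.0217). Mid1, an X-linked ubiquitin ligase gene, was at 111.5, 84.4, 56.8, 27.6 and 35.0 CPM (-1.43 ± 0.20, adjusted p = 1.25e-10).

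Lineage transcription factors and lysosomal genes had no call in any of the 4 comparisons. For lists this short that is near the share of all genes called in each comparison, given above, and is no result about these lists. Spi1 was at 274.3, 212.9, 247.5, 235.8 and 240.9 CPM in the 5 libraries. Among the complement genes, C1qa was at 67.0 to 84.0 CPM and C1qb at 170.1 to 219.5 CPM, and neither was called. The growth factor gene Tgfb1 lay between 127.8 and 160.2 CPM. Such values bound the differences that these 5 libraries hold but, with 1 library in 3 of the 4 groups, they do not show that the groups were alike.

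**Figure D5:**
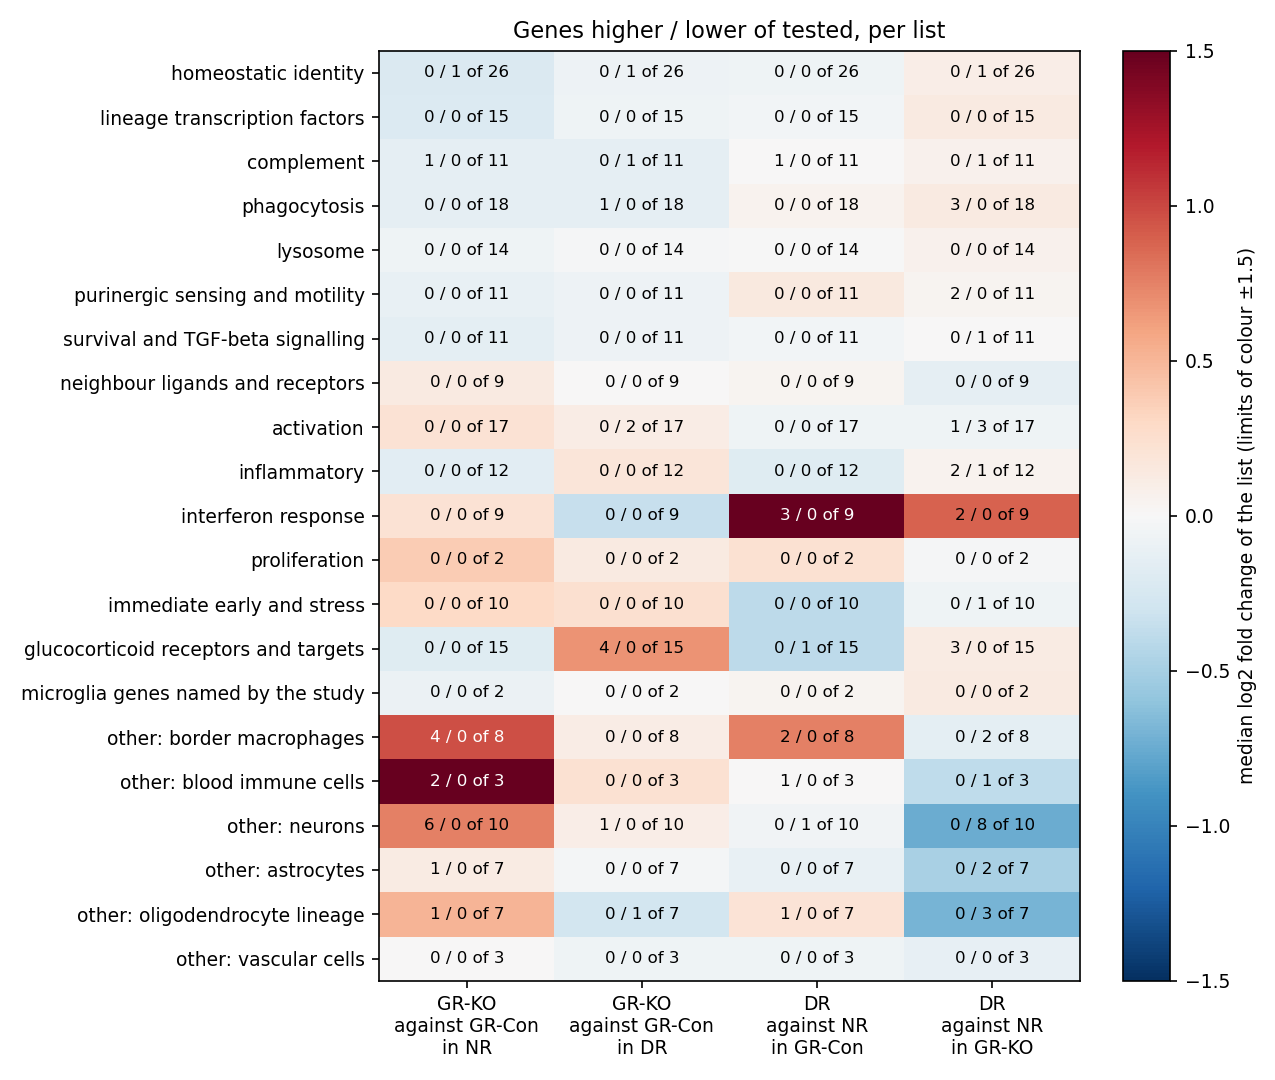
For the gene lists and the 4 comparisons, the colour gives the median log2 fold change of the genes tested (colour limits ±1.5) and the text the number called higher and lower of the number tested. The homeostatic, lineage factor and lysosome rows lie between -0.22 and 0.13, lowest for the homeostatic genes in NR. The glucocorticoid row is highest within DR and the interferon row in DR against NR. The neuron row is high for genotype in NR and low for rearing in GR-KO, 2 comparisons that share the NR GR-KO female library.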

How the data were processed

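The authors sorted DRAQ5-stained nuclei (GFP-negative in the study's methods) from flash-frozen V1, made 8 libraries with a 10x 3′ kit, aligned them with Cell Ranger 8.0.1 to mm10 with the vector sequences added, filtered and clustered in Seurat 5.3.0, and removed predicted doublets per sample with DoubletFinder. The deposited matrix holds whole-number UMI counts of 26711 features in 102330 nuclei, and the deposited cell table holds the cell types and the percent of mitochondrial counts. The microglia label came from the authors' clustering. No further filter on nuclei was applied.

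UMI counts were summed over microglia per library where at least 100 nuclei were present, and CPM was set by library sums over all features. The samples carry replicate numbers and the libraries sex, so libraries are named by group and sex. edgeR 4.0.16 was used with the study's likelihood ratio test, and filterByExpr, TMM, 1 mean per group and Benjamini-Hochberg adjustment over all genes tested were chosen here, with a biological coefficient of variation of 0.0744. Total microglia UMIs ranged from 1381629 to 3686450 per library. Libraries are separate animals per the labels, and p-values measure the spread between 1 pair of them. Alternatives were edgeR's quasi-likelihood test, DESeq2 1.42.0, other size factors, no filter, equal nuclei (573), additive terms, sex, and macrophage-like nuclei or neuron-enriched features left out. Shares of nuclei were compared by exact permutation (scipy 1.17.1). The fit was tested on simulated data.

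The named genes were the listed genes and the 20 with the highest ratio to other types among genes of at least 50 CPM. For each comparison, up to 6 called genes per direction were added by fold change, with a mean log2 CPM of at least 5. Such a gene also needed values that separated fully by group in the comparison. The same rule was applied again with neuron-enriched and sex-linked genes set aside, again for up to 6 per direction. Ap1b1 and Serpine2 entered by this further choice. Called list members were named too. Members, lists and the further choice were made with earlier results of these data known. Gene coordinates came from GENCODE vM21, which matched 26006 features to 1 gene, and promoters from RefSeq (GRCm38.p6). Some named genes are not reported here.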

Additional observations from a re-analysis of the deposited data

Results flagged for a closer look

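Among the 4 GR-KO libraries the microglia share of NR GR-KO male, 0.033%, lay apart, with a gap to the next library of 0.857 of the range, past Dixon's critical value at the 95% level. Among the 4 DR libraries the share of DR GR-Con female, 0.029%, lay apart in the same way (0.852). Such gaps appear by chance in about 1 of 20 groups, and both libraries are among the 3 whose shallowest nucleus had 4635 to 7024 UMIs. These 3 were already set apart by their few microglia, so the gaps restate that split and add no separate result.

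Of 55 named genes, 32 had a genotype effect that differed between NR and DR by the interaction term of edgeR's likelihood ratio test with Benjamini-Hochberg adjustment, 23 with a positive and 9 with a negative difference (NR minus DR, log2). Over all 12856 genes, 323 were called (2.51%). The 55 were named for a change in NR or in DR in these same libraries, so a high count among them is built in. Neuron-enriched genes were Gpc5 (2.38), Kcnb2 (2.35), Dcc (2.26), Galntl6 (3.20), Grip1 (1.90), Lrrtm4 (1.68), Meg3 (1.50), Csmd1 (1.48), Kcnip4 (1.42) and Syt1 (0.77), beside a neuronal share of microglia UMIs of 7.01% in NR GR-KO female and 3.53% to 4.37% in the other libraries. That rule uses excitatory neurons alone, so it does not mark genes of other neurons. Gpc5 was far higher in astrocytes, at 9826.9 CPM, than in excitatory neurons, at 191.8 CPM. Genes of macrophages and blood immune cells were Cd163 (1.87), F13a1 (1.40), Dab2 (0.89), Mrc1 (0.82), Aoah (1.80) and Ccr2 (2.98), the last from few UMIs. Genes of the glucocorticoid list were Ddit4 (-2.49), Fkbp5 (-1.62) and Tsc22d3 (-1.25). The rest were Adarb2 (2.27), Erbb4 (1.65), Ccnd3 (-1.06), Ap1b1 (-1.04), Wdr41 (-0.90), Slc43a2 (-0.81), Dlc1 (-0.68), Lpl (2.51), Myo1d (1.23), Slc44a2 (1.04), Il6st (1.00), Serpine2 (0.80) and the X-linked antisense gene Tsix (-9.62), which depends on the sex of the libraries. The 4 groups in this term are 1 female library each in NR, 1 male library in DR GR-Con and 1 of each sex in DR GR-KO, so library and sex cannot be told apart from the interaction.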

How the results depend on the processing

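Counts of calls are given for genotype in NR, genotype in DR, rearing in GR-Con and rearing in GR-KO, where 400, 127, 129 and 858 genes were called. DESeq2 called 66, 11, 2 and 63. Additive terms, with 2 residual degrees of freedom in place of 1, called 17 for genotype and 151 for rearing, their quasi-likelihood test 1 for each, and additive terms with sex 3 for genotype and 22 for rearing. The quasi-likelihood test called 210 for genotype in DR. Without neuron-enriched features 41, 111, 71 and 382 were called, and without nuclei that held 2 or more of 10 macrophage markers 75 for rearing in GR-Con. Leaving out a library was possible only for libraries outside the compared groups, since the others leave no residual degrees of freedom or no group, and gave 391, 129, 120 and 833 to 847, which says nothing on the libraries compared. Other size factors, no filter on low counts and equal nuclei moved no count by over 1.5 times, and with the other size factors the median log2 change of all genes lay between -0.00231 and 0.0106. Of the named called genes, 0 of 31, 0 of 24, 1 of 28 (Gm47283) and 3 of 53 remained called under every alternative that tested them, which for Gm47283, Cxcl10 and S100a9 were 9 to 12, and up to 14 for other genes. For Fkbp5 in DR, the adjusted p ranged from 5.4e-38 to 0.999 and the log2 change from 0.42 to 1.36. The sign turned without the macrophage-marked nuclei for Mrc1 (-0.77) and Dab2 (-0.34) in NR genotype and for Dab2 in rearing within GR-KO (0.18), which follows from choosing those nuclei by these genes. It turned for Galntl6 in DR genotype with additive terms and sex (0.06). For rearing in GR-Con it turned under additive fits for Galntl6 (-0.44, -0.48, -1.0), Lsamp (-0.03, -0.31), Aoah (-0.35), F13a1 (-0.20), Csmd1 (-0.23, -0.25, -0.46) and St18 (-0.43). The cause of the others was not tested. The share differences, 2.66 and 1.82 percentage points, ranged from 1.81 to 4.38 and from 0.84 to 3.41 when a library was left out, with a lowest exact permutation p of 0.0571. Group means with sex left no residual degrees of freedom and were not run. No paired analysis was possible because the libraries carry sex and not the samples' replicate numbers.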
